A study of Homo sapiens with 16 samples.

Results

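The genes described here are 9 well-known transcriptional targets of the tumour suppressor p53: *CDKN1A*, *MDM2*, *GDF15*, *BBC3*, *TP53I3*, *SESN1*, *ZMAT3*, *FAS* and *BTG2*. They were taken by name, and all 9 were found among the 26475 entries of the count table. RNA-seq was carried out on MCF10A, a non-tumorigenic, spontaneously immortalized human breast epithelial cell line, in 16 libraries that make up 4 groups of 4. The Control group received DMSO and 2 plain media changes, with no collagen. The Collagen group received DMSO and, for the last 24 h, collagen 1 at 0.05 mg/mL. The DDR1i group received the same collagen together with 2 μM DDR1-IN-1, an inhibitor of the collagen-activated receptor kinase DDR1. The RUNXi group received it with 5 μM AI-10-104, which blocks the binding of RUNX proteins to CBFβ. Both inhibitors were present for 48 h. All groups are of the same line, so the data describe a single cell line.

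p53 is a transcription factor that is kept low in unstressed cells because MDM2, itself a p53 target, marks it for degradation. When DNA damage, ribosome stress or oncogene activity relieves this brake, p53 binds to response elements near its targets and raises their transcription. The targets arrest the cell cycle, start cell death, support repair and metabolism, or feed back on p53 itself. In basal breast epithelium the related factor p63 binds very similar elements and can act on many of the same genes. *CDKN2A*, whose ARF product restrains MDM2, is known to be deleted in MCF10A.

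The letters through which p53 recognizes its targets are shown first, because they are what the 9 genes are known to share. The p53 element is a pair of decamers, each made of 3 purines, a C, 2 bases that are A or T, a G and 3 pyrimidines. This pattern is its own reverse complement, so a single search covers both strands. It was searched in the GRCh37 genome within 3000 bases on either side of the start of each gene's canonical transcript (for *FAS*, an older principal transcript), without a spacer between the decamers. The C and G of both decamers had to match, and at most 2 of the other bases could differ. Such a match was found for 6 of the 9 genes, and for 570 (4.63%) of the 12313 tested genes with a known start. The matches read as follows, 5′ to 3′ on the strand of the gene, with the 4 central bases of each decamer in capitals.
CDKN1A, upstream, 2265 bases before the start, chr6:36644226-36644245, plus strand: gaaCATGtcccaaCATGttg
MDM2, intron 1, chr12:69202703-69202722, plus strand: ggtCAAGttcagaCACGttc
GDF15, upstream, 850 bases before the start, chr19:18496118-18496137, plus strand: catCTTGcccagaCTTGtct
ZMAT3, intron 1, chr3:178787976-178787995, minus strand: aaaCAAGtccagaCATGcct
FAS, intron 1, chr10:90751066-90751085, plus strand: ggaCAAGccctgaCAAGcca
BTG2, upstream, 1877 bases before the start, chr1:203272770-203272789, plus strand: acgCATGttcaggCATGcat
Upstream refers to the canonical transcript, and the matches of *CDKN1A* and *GDF15* lie in or at the edge of the longer span that the annotation gives to the whole gene. The *ZMAT3* match had 0 mismatches and the other 5 had 2 each. For *BBC3*, *TP53I3* and *SESN1* these letters were not in the window searched. A match describes sequence only, since binding of p53 was not measured here.

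Total counts ranged from 12184619 to 44332378 per library, and the 9 genes together took 0.0463 to 0.0630% of them. Control replicates 2 and 3 had the fewest counts and the fewest detected genes of their group. Of the epithelial markers, the basal keratins were high, with *KRT5* at 7084 to 11686 CPM (counts scaled to a common library size) and *KRT14* at 1620 to 4795 CPM. Not all markers of that list were high. *CDH1* had 61.4 to 117 CPM, and the lowest marker of the list had 20.3 to 48.2 CPM, which overlaps the range of *DCN* below. Of the fibroblast markers, *COL3A1* had 0 counts, *LUM* stayed below 0.41 CPM and *DCN* ranged from 1.39 to 30.1 CPM. Of the leukocyte markers, *PTPRC* had 1 count and *CD3E* 2 counts in all, while *CD68* ranged from 8.53 to 28.8 CPM. The study left out collagen replicate 3 as an outlier. That library is not in the tests below, and its values are given beside the others.

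Expression of the 9 genes spanned a wide range when set per transcript length, as RPKM (CPM divided by transcript length in kilobases) over all 16 libraries. *CDKN1A* was the highest, with a median of 95.2 RPKM (77.7 to 129), and its range did not touch that of any other of the 9 genes. *TP53I3* followed at 29.0 RPKM (22.0 to 48.6), then *FAS* at 17.2 (8.90 to 23.1), *MDM2* at 15.4 (11.1 to 20.5) and *BTG2* at 11.1 (7.83 to 15.1). *GDF15* had a median of 8.64 RPKM (3.59 to 23.0). *ZMAT3* at 4.30 RPKM (3.15 to 5.24), *SESN1* at 4.07 (1.43 to 5.19) and *BBC3* at 3.69 (2.19 to 5.78) were the lowest. From *TP53I3* downwards the ranges of neighbours in this order overlapped, so that the order within such a pair was not larger than the spread between libraries. Genes further apart in the order could be separate. The lowest *TP53I3* value (22.0 RPKM) lay above the highest of *MDM2* (20.5). The lowest *BTG2* value (7.83) lay above the highest of *ZMAT3* (5.24), *SESN1* (5.19) and *BBC3* (5.78).

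**Figure D1:**
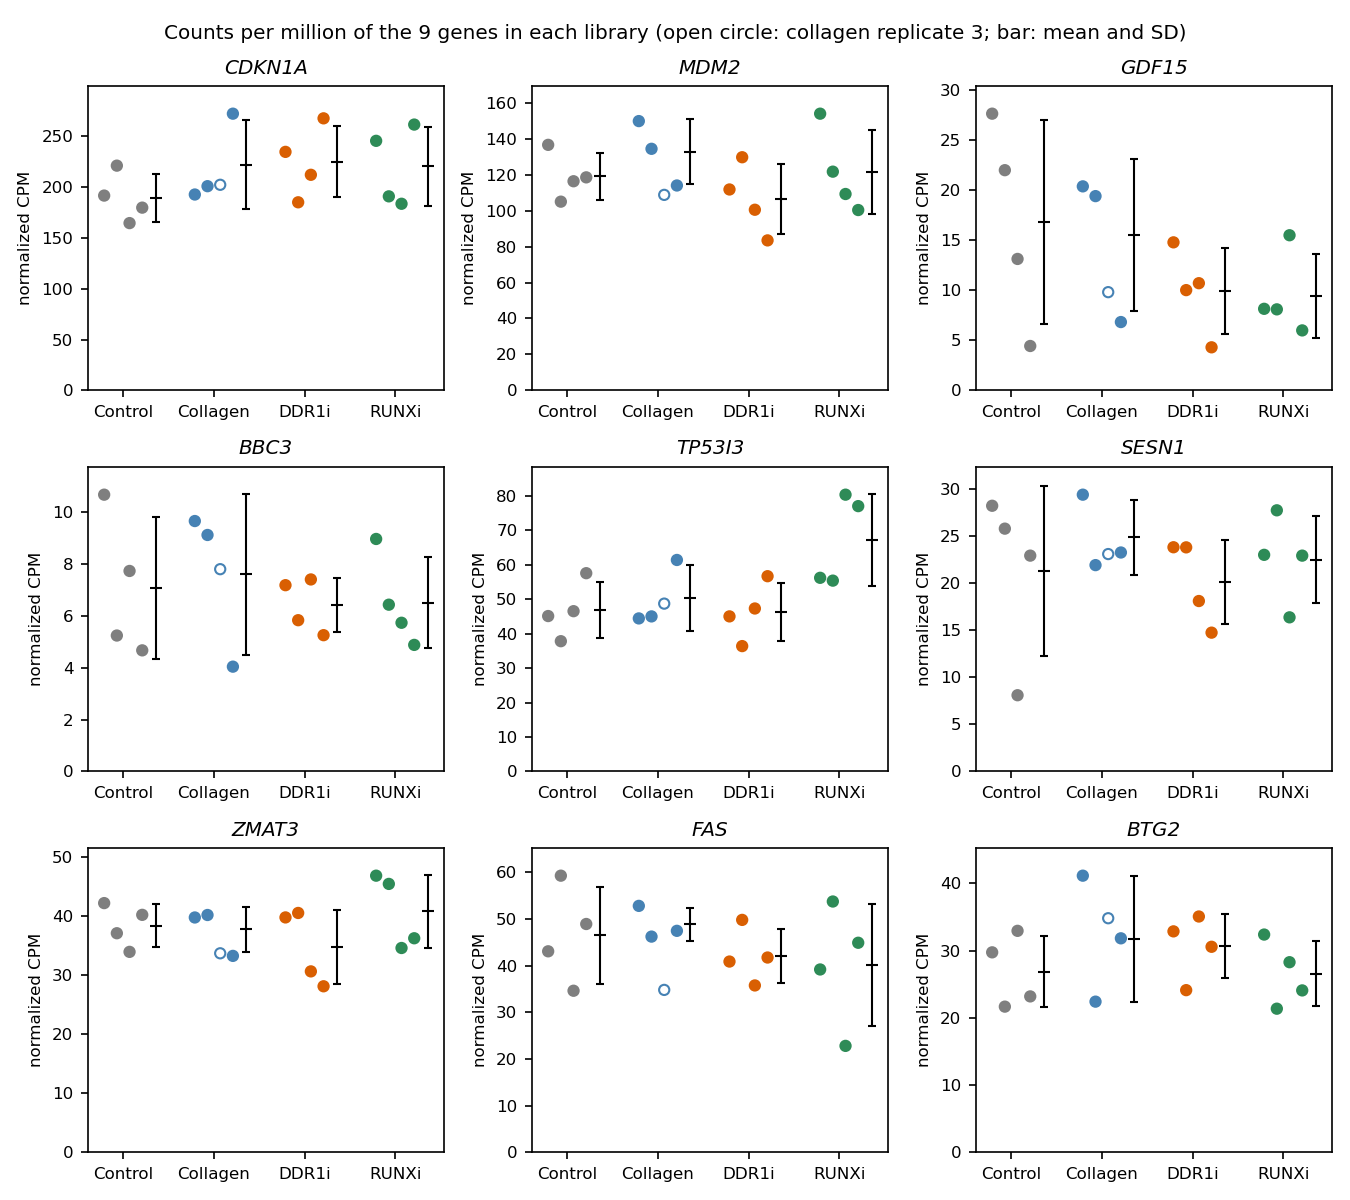
Normalized CPM (y axis, linear, from 0) of the 9 genes in each of the 16 libraries, by group (x axis). Points are libraries in the order of replicates 1 to 4, the open circle is collagen replicate 3, and bars are the mean and SD without that library; the groups overlap for each gene, with the RUNXi points of TP53I3 reaching highest, at 80.3 CPM.

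*CDKN1A* (chromosome 6, 36644237 to 36655114, GRCh37) encodes p21, the cyclin-dependent kinase inhibitor that carries much of the p53 cell cycle arrest. It had 192, 221, 165 and 180 normalized CPM in control replicates 1 to 4 and 193, 201, 202 and 272 CPM in collagen replicates 1 to 4. It had 235, 185, 212 and 268 CPM with DDR1i and 245, 191, 184 and 261 CPM with RUNXi. The 4 groups overlapped, and in each collagen-treated group replicate 4 was the highest library. *BTG2* (chromosome 1, 203274619 to 203278730), an antiproliferative gene of the BTG/TOB family, ranged from 21.4 to 41.2 CPM, with its highest value in collagen replicate 1.

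*MDM2* (chromosome 12, 69201957 to 69239324), the ubiquitin ligase that closes the feedback loop on p53, had 137, 105, 116 and 118 CPM in the control libraries and 150, 134, 109 and 114 CPM with collagen alone. It had 112, 130, 100 and 83.4 CPM with DDR1i and 154, 122, 109 and 100 CPM with RUNXi. DDR1i replicate 4 was the lowest of the 16 libraries and RUNXi replicate 1 the highest. *MDM2* shares exon sequence with the carboxypeptidase M gene on the opposite strand (133 bases), and the use of strand in counting is not given in the sources used here.

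Of the genes of cell death, *TP53I3* (chromosome 2, 24300303 to 24308731) encodes a quinone oxidoreductase-like enzyme also known as PIG3. It had 45.1, 37.8, 46.5 and 57.5 CPM in the control libraries and 44.4, 45.0, 48.7 and 61.4 CPM with collagen alone. It had 45.0, 36.4, 47.3 and 56.7 CPM with DDR1i and 56.2, 55.4, 80.3 and 77.0 CPM with RUNXi. The 2 highest libraries of all 16 were both RUNXi libraries, while the other 2 RUNXi libraries lay just below DDR1i replicate 4, so that the groups overlapped. *FAS* (chromosome 10, 90750414 to 90775542), the death receptor CD95, ranged from 22.8 CPM in RUNXi replicate 3 to 59.2 CPM in control replicate 2. *BBC3* (chromosome 19, 47724079 to 47736023), which encodes the BH3-only protein PUMA, had the lowest median CPM of the 9 genes, with values from 4.04 in collagen replicate 4 to 10.7 in control replicate 1. *FAS* shares 380 exon bases with *ACTA2*, *TP53I3* shares 80 with *FAM228B*, and *BBC3* shares 80 with *MIR3191*, all on the opposite strand.

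*SESN1* (chromosome 6, 109305512 to 109416049), a sestrin that restrains mTORC1 signalling, ranged from 8.10 CPM in control replicate 3 to 29.4 CPM in collagen replicate 1. Apart from control replicate 3, its lowest library was DDR1i replicate 4 at 14.8 CPM. *ZMAT3* (chromosome 3, 178677909 to 178790003), a zinc finger RNA-binding protein, was among the steadiest genes, with 28.1 to 46.8 CPM. *GDF15* (chromosome 19, 18485541 to 18499986), a secreted stress cytokine of the TGF-β superfamily, was the most variable. It had 27.6, 22.0, 13.1 and 4.44 CPM in the control libraries and 20.4, 19.4, 9.81 and 6.83 CPM with collagen alone. It had 14.8, 10.0, 10.7 and 4.30 CPM with DDR1i and 8.15, 8.10, 15.5 and 5.99 CPM with RUNXi. Its highest library was 6.42-fold above its lowest, and its SD within the control group was 60.6% of the mean. The corresponding range was 1.65-fold for *CDKN1A* and 1.67-fold for *ZMAT3*. DDR1i replicate 4 was the lowest library of all for 3 of the 9 genes (*MDM2*, *GDF15* and *ZMAT3*). Within each of the 4 groups, replicate 4 was the lowest library for *GDF15* and for *BBC3*. For *TP53I3* it was the highest library of its group in all but the RUNXi group. In bulk RNA-seq, fewer cells expressing a gene and less of its RNA per cell cannot be told apart.

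The comparison of DDR1i with collagen alone asks whether blocking the collagen receptor kinase moves these genes. No change was detected in any of the 9. With the quasi-likelihood test of edgeR and p-values adjusted by Benjamini-Hochberg, 0 of the 9 genes passed an adjusted p of 0.05, against 2.47% of the 13548 genes tested. At an unadjusted p under 0.05, 1 of the 9 passed (*MDM2*), against 18.0% of all genes. DESeq2 gave an adjusted p for 7 of the 9 and called 0, against 10.0% of the genes to which it gave one. The log2 fold change was below 0 for 8 of the 9 genes, with a median of -0.22, while 49.7% of all genes were below 0 and their median was 0.00.

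*MDM2* had 133 ± 18.0 CPM (SD, n = 3) with collagen alone and 106 ± 19.4 CPM (SD, n = 4) with DDR1i. Its log2 fold change was -0.32 (standard error 0.15, unadjusted p = 0.0485, adjusted p = 0.274 in the edgeR test), and the groups overlapped. When expression was first corrected for transcript length, *MDM2* had -0.59 (adjusted p = 0.0575 with edgeR). *CDKN1A* had 222 ± 43.7 CPM (SD, n = 3) with collagen alone and 225 ± 35.0 CPM (SD, n = 4) with DDR1i. Its log2 fold change was 0.02, with a 95% confidence interval from -0.29 to 0.32. *GDF15* had 15.5 ± 7.56 CPM (SD, n = 3) and 9.95 ± 4.31 CPM (SD, n = 4), respectively. Its log2 fold change of -0.64 (adjusted p = 0.457) had the widest interval, from -1.50 to 0.22, and it was -0.99 without collagen replicate 4, -0.40 without collagen replicate 1 and -0.39 without DDR1i replicate 4. The other 6 genes lay between -0.30 (*SESN1*) and -0.05 (*BTG2*), and their adjusted p-values from edgeR ranged from 0.498 to 0.944. Correction for transcript length gave *SESN1* -0.51 and *ZMAT3* -0.43 (adjusted p = 0.234 and 0.230 with edgeR).

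With RUNXi, compared with the same 3 collagen libraries, 0 of the 9 genes passed the adjusted p of 0.05 in edgeR, against 4.05% of all genes tested. *TP53I3* was the 1 gene of the 9 with an unadjusted p under 0.05, against 21.1% of all genes. DESeq2 called 0 of the 9, against 11.8% of the genes to which it gave an adjusted p. The log2 fold change was below 0 for 7 of the 9 genes, with a median of -0.14, against 49.5% of all genes and a median of 0.01. Because both inhibitor groups were set against the same collagen libraries, the signs in these comparisons are not independent of each other.

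*TP53I3* had 50.3 ± 9.63 CPM (SD, n = 3) with collagen alone and 67.2 ± 13.3 CPM (SD, n = 4) with RUNXi. Its log2 fold change was 0.42 (standard error 0.17, unadjusted p = 0.0236, adjusted p = 0.162 in the edgeR test), and 2 of the 4 RUNXi libraries lay above all collagen libraries. *GDF15* had 9.43 ± 4.16 CPM (SD, n = 4) with RUNXi and a log2 fold change of -0.73 (adjusted p = 0.329), which was -1.08 without collagen replicate 4. *CDKN1A* had 220 ± 38.9 CPM (SD, n = 4) and a log2 fold change of -0.01, with a 95% confidence interval from -0.31 to 0.30. *MDM2* had a log2 fold change of -0.13, with an interval from -0.45 to 0.19. The other 5 genes lay between -0.28 (*FAS*) and 0.11 (*ZMAT3*), with edgeR adjusted p-values from 0.451 to 0.776. After correction for transcript length *MDM2* had -0.36, *SESN1* -0.32, *ZMAT3* -0.16 and *TP53I3* 0.59 (adjusted p = 0.268, 0.498, 0.723 and 0.0700 with edgeR).

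**Figure D2:**
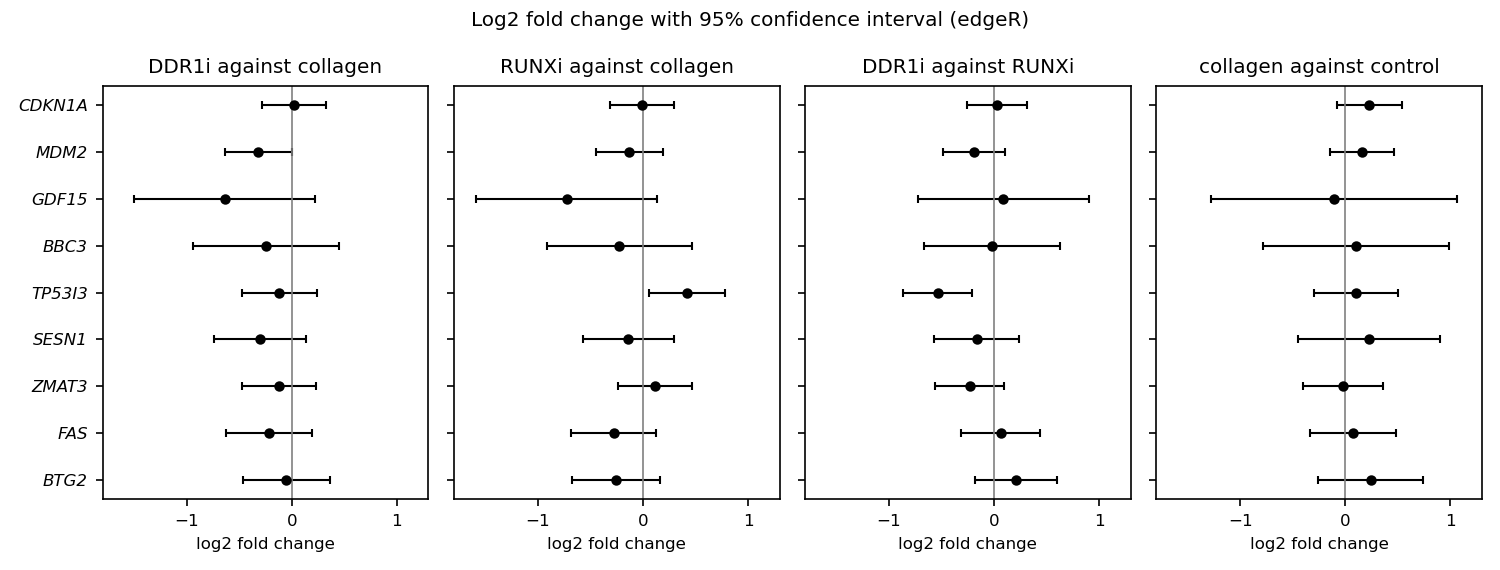
Log2 fold change (x axis, points) of the 9 genes (y axis) in the 4 comparisons, with 95% confidence intervals from the edgeR fit (lines). The interval of TP53I3 lies below 0 for DDR1i against RUNXi (-0.54) and above 0 for RUNXi against collagen (0.42), that of MDM2 with DDR1i ends just below 0, and none of the 36 values passed the adjusted p of 0.05.

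Compared directly, DDR1i and RUNXi, which differ in target and in dose, showed no detected difference in the 9 genes, and *TP53I3* had the smallest p. The log2 fold change of *TP53I3* (DDR1i against RUNXi) was -0.54 (standard error 0.16), with 46.3 ± 8.34 CPM (SD, n = 4) and 67.2 ± 13.3 CPM (SD, n = 4). Its unadjusted p of 0.00253 in the edgeR test gave an adjusted p of 0.209, so that *TP53I3* was not called. Without the filter on low counts its adjusted p was 0.0372, and over the alternatives run its adjusted p ranged from 0.0233 to 0.672. Leaving out single libraries gave *TP53I3* log2 fold changes from -0.65 to -0.44. In all, 0 of the 9 genes were called with edgeR, against 0.568% of all genes, and 1 of the 9 had an unadjusted p under 0.05, against 6.19%. DESeq2 called 0 of the 9, against 0.910%. The other 8 genes lay between -0.23 (*ZMAT3*) and 0.21 (*BTG2*) on the log2 scale. The interval of *CDKN1A* ran from -0.25 to 0.31, and that of *BBC3* from -0.67 to 0.63.

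For collagen itself, compared with Control, no change was detected in the 9 genes. With edgeR 0 of the 9 genes passed the adjusted p of 0.05, and 0% of the 13092 genes tested did so. At an unadjusted p under 0.05, 0 of the 9 passed, against 13.4% of all genes. DESeq2 gave an adjusted p for 7 of the 9 and called 0, against 5.76% of the genes to which it gave one. *CDKN1A* had 189 ± 23.9 CPM (SD, n = 4) in Control, and its log2 fold change with collagen was 0.23, with a 95% confidence interval from -0.08 to 0.54. Without collagen replicate 4 it was 0.06. *BTG2* had 0.24 and *SESN1* 0.22 on the log2 scale, and without control replicate 3 *SESN1* had -0.04. Without collagen replicate 1 *BTG2* had 0.0186. Correction for transcript length gave *MDM2* 0.37 in place of 0.16 (adjusted p = 0.786 with edgeR). Log2 fold changes were above 0 for 7 of the 9 genes, with a median of 0.10, against 50.9% of all genes and a median of 0.01. The collagen libraries are those used in the inhibitor comparisons, so these signs are not independent of the signs found there. The intervals of *GDF15* (-1.28 to 1.06) and *BBC3* (-0.78 to 0.98) were the widest of the 9.

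Regulators of the pathway were measured in the same libraries. *TP63*, which encodes p63, ranged from 47.7 to 75.6 CPM and *MDM4*, the MDM2 relative that inhibits p53, from 18.0 to 45.4 CPM. *CDKN2A* had 0 counts in all 16 libraries, where a count of 0 allows up to 0.246 CPM in the smallest library. The log2 fold change of *TP63* was -0.02 with DDR1i and -0.12 with RUNXi against collagen, and neither was called. *MDM4* had -0.19 and -0.07, respectively, and was not called. In collagen against Control, the log2 fold change was 0.01 for *TP63* and 0.16 for *MDM4*.

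Of the 17 genes in the list of pathway regulators, 16 were tested. With RUNXi against collagen, 2 of them rose and 1 fell, where 4.05% of all genes were called. *ATM*, the kinase that signals DNA breaks to p53, rose by 0.68 on the log2 scale (adjusted p = 0.0207), and *HIPK2*, a kinase that phosphorylates p53, rose by 0.94 (adjusted p = 0.0219, both from edgeR). *RPL11*, a ribosomal protein that can bind MDM2, fell by 0.46 on the log2 scale (adjusted p = 0.0325 with edgeR). Each of these calls was lost with collagen replicate 3 included (adjusted p = 0.287 for *ATM*, 0.224 for *HIPK2* and 0.253 for *RPL11*). Collagen replicate 3 had 51.9 CPM of *ATM*, against 34.9, 35.1 and 27.1 CPM in the other collagen libraries. They were also lost after correction for transcript length (0.202, 0.0528 and 0.194, respectively) and without collagen replicate 4 (0.102, 0.107 and 0.133). Of 11 fits without a single library, *ATM* kept its call in 9, *HIPK2* in 8 and *RPL11* in 5. With DDR1i none of the 16 passed, and *ATM* (0.56, adjusted p = 0.0562) and *HIPK2* (0.71, adjusted p = 0.0749) had the smallest p. Between the inhibitors the smallest p belonged to *RPL11* (log2 fold change 0.21), and in collagen against Control to *RPL5* (0.40) and *ATM* (-0.60), with none called.

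A further 43 textbook p53 targets were all tested, in groups by role. With DDR1i against collagen, 1 of the 43 fell and 0 rose, with a median log2 fold change of -0.02. This is close to the 2.47% of all genes called. The gene that fell was *PERP*, a tetraspan membrane protein of cell death and of desmosomes, by 0.54 on the log2 scale (adjusted p = 0.0197 with edgeR). *PERP* had 618, 474 and 726 CPM in collagen replicates 1, 2 and 4 and 433, 414, 422 and 395 CPM with DDR1i. Collagen replicate 3 had 449 CPM, and including it gave *PERP* an adjusted p of 0.414. The call was also lost without collagen replicate 4 (adjusted p = 0.103), DDR1i replicate 3 (0.0665) or DDR1i replicate 4 (0.0760). With RUNXi against collagen, 2 of the 43 fell and 0 rose, with a median of -0.07. This too is close to the share of all genes called, 4.05%. *PLK2*, a polo-like kinase of the cell cycle, fell by 0.76 on the log2 scale (adjusted p = 0.00943 with edgeR). It had 71.8, 58.9 and 72.0 CPM with collagen and 37.0, 41.9, 35.5 and 44.7 CPM with RUNXi. *PLK2* stayed called with collagen replicate 3 included (adjusted p = 0.0246) and after correction for transcript length (0.00811).

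*DDB2*, a damage recognition factor of nucleotide excision repair, fell by 0.51 on the log2 scale with RUNXi (adjusted p = 0.0369 with edgeR). It had 56.6, 59.9 and 60.1 CPM with collagen, 56.2 CPM in collagen replicate 3 and 38.1, 43.5, 39.7 and 44.5 CPM with RUNXi. Including collagen replicate 3 gave *DDB2* an adjusted p of 0.0951, and without collagen replicate 2, collagen replicate 4 or any 1 of the 4 RUNXi libraries it ranged from 0.0638 to 0.119. Correction for transcript length also ended the call of *DDB2* (adjusted p = 0.158), and so did all 4 groups in the fit (0.0796). Between the inhibitors, *DDB2* was the 1 gene of the 43 that was called, where 0.568% of all genes were, 0.56 higher on the log2 scale with DDR1i (adjusted p = 0.0364), with 54.4 to 67.6 CPM. *DDB2* kept this call in 4 of 11 leave-one-out fits, and lost it without any 1 of the 4 RUNXi libraries or without DDR1i replicate 1, 2 or 3. *PLK2* was not called there (0.59, adjusted p = 0.0643). Its libraries did not overlap, which was so for 4.49% of all genes tested. In collagen against Control, 0 of the 43 were called with edgeR, with a median log2 fold change of 0.09, and 1 was called with DESeq2.

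**Figure D3:**
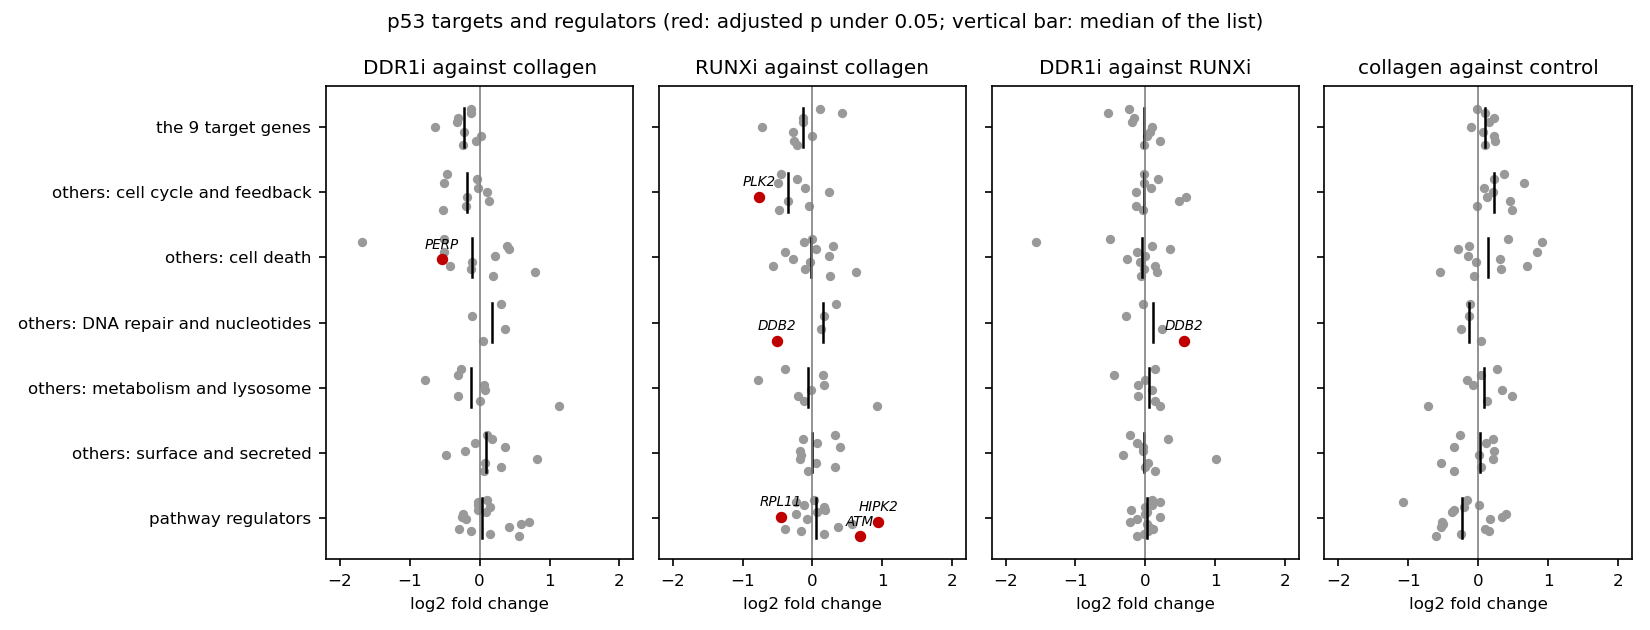
Log2 fold change (x axis) of the 9 genes, of 43 other p53 targets by role and of 16 regulators (y axis, 1 point per gene) in the 4 comparisons. Red points passed the adjusted p of 0.05 in edgeR (PERP with DDR1i, PLK2, DDB2, ATM, HIPK2 and RPL11 with RUNXi, and DDB2 between the inhibitors), vertical bars are medians of the lists, and most points lie within 1 of 0.

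In the role groups of these 43 genes without a call, the genes with the smallest p are given as values. With DDR1i these were *RPS27L* (log2 fold change -0.51) and *BTG1* (-0.52) of cell cycle and feedback, *POLH* (0.36) and *XPC* (0.31) of DNA repair, *SESN2* (-0.78) and *DRAM1* (-0.31) of metabolism, and *PLXNB2* (0.36) and *NINJ1* (-0.48) of the cell surface. With RUNXi they were *CASP1* (-0.57) and *TNFRSF10B* (0.29) of cell death, *SESN2* (-0.78) and *TIGAR* (-0.40) of metabolism, and *PLXNB2* (0.40) and *PHLDA3* (-0.18). Between the inhibitors, apart from *PLK2*, they were *GADD45A* (0.49), *PERP* (-0.27), *TNFRSF10A* (0.36), *SPATA18* (-0.46), *CMBL* (0.14), *LIF* (1.01) and *TGFA* (0.32). In collagen against Control they were *RPS27L* (0.66), *GADD45A* (0.45), *CASP1* (0.69), *BAX* (0.33), *POLH* (-0.25), *XPC* (-0.12), *DRAM1* (0.49), *TIGAR* (0.26), *PLXNB2* (-0.35) and *PHLDA3* (0.22). None of these passed the adjusted p of 0.05 in edgeR.

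The 9 genes did not vary as a block across the 16 libraries. Pearson's r of log2 CPM over the 36 pairs ranged from -0.50 to 0.81, with a median of 0.10, and 20 pairs were above 0. The libraries share treatments, and both library size and the make-up of the RNA enter each value, so that r is given as a description. *MDM2* and *ZMAT3* were the closest pair (r = 0.81), and *ZMAT3* was the 7th most similar of the 13616 tested genes to *MDM2*. *GDF15* and *BBC3* (0.64), *MDM2* and *BBC3* (0.61), *SESN1* and *ZMAT3* (0.57) and *SESN1* and *FAS* (0.56) came next. *MDM2* and *ZMAT3* have the longest transcripts of the 9 genes (7490 and 8936 bases), and the part of transcript length in r was not tested. *CDKN1A* had r from -0.40 with *GDF15* to 0.30 with *TP53I3*. *TP53I3* was lowest against *GDF15* (-0.50) and *FAS* (-0.48).

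**Figure D4:**
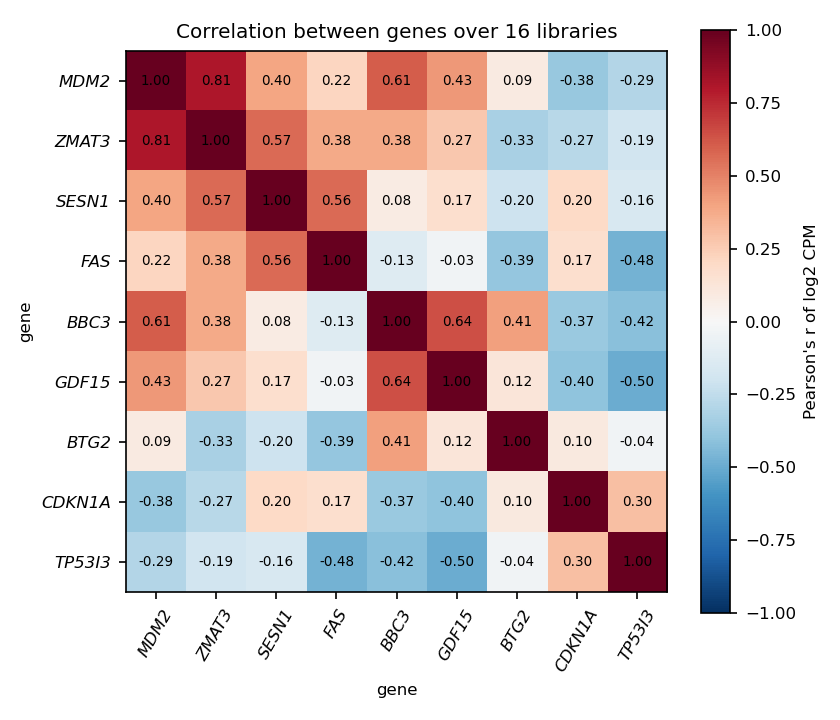
Pearson's r of log2 CPM between the 9 genes over the 16 libraries, with each gene on both axes and r printed in each cell (red above 0, blue below 0). MDM2 and ZMAT3 form the strongest pair (0.81), and CDKN1A and TP53I3 lie below 0 against MDM2, ZMAT3, BBC3 and GDF15.

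The genes most similar to each of the 9 over the same 16 libraries included 1 p53 target of the lists used here, *CCNG1*. For *ZMAT3* they were *CTAGE5* (r = 0.91), *CCNG1* (0.88) and *RAB27B* (0.88), and for *MDM2* they were *PDCD4* (0.87), *GSR* (0.87) and *CABLES1* (0.87). For *CDKN1A* they were *PMM1* (0.86), *NECAP2* (0.85) and *RBM42* (0.83), and for *BTG2* they were *JUND* (0.89), *PPP1R15A* (0.82) and *ZNF579* (0.79). For *GDF15* they were *TSC22D3* (0.94), *TNFAIP2* (0.92) and *IRX3* (0.90), and for *BBC3* they were *RGS3* (0.89), *IRF2BP2* (0.89) and *PIM3* (0.85). For *TP53I3* they were *MISP* (0.90), *CYP4F11* (0.88) and *P3H2* (0.86). For *SESN1* they were *TMEM67* (0.95), *CACUL1* (0.92) and *MRE11A* (0.90), and for *FAS* they were *RFC3* (0.90), *C3orf17* (0.89) and *CENPU* (0.88).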

How the data were processed

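The authors aligned the RNA-seq reads to GRCh37 (hg19) with STAR and deposited raw counts, meaning unnormalized read numbers per gene. The counting tool, annotation and use of strand are not given in the sources used here. Libraries were assigned to groups from the treatment labels. The labels do not state whether replicates were separate cultures, so p-values measure the spread between libraries, which may be technical. Replicates differed by more than sampling noise (lowest chi-square per degree of freedom 18.7 over 24 pairs).

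Counts were tested with the quasi-likelihood test of edgeR 4.0.16 in R 4.3.3, using robust fitting, TMM factors and the filterByExpr filter. P-values were adjusted by Benjamini-Hochberg over all genes tested, with a threshold of 0.05. The 3 comparisons with inhibitors shared a fit of 11 libraries, and collagen against Control used 7. Collagen replicate 3 was left out, as in the study. Standard errors are the log2 fold change over the square root of F. Levels are CPM scaled by TMM over 16 libraries, and log2 CPM used a prior count of 2. RPKM used canonical transcript lengths of the GENCODE annotation lifted to GRCh37, in which 20785 names were matched. Alternatives were DESeq2 1.42.0, its size factors, no filter, collagen replicate 3 included, all 4 groups in the fit, a replicate block, transcript length trends removed (splines with 4 degrees of freedom, 12313 of 13548 genes with a length) and leaving out each library. Figures were drawn with matplotlib 3.10.9 in Python 3.11.15.

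The 9 genes and the lists were chosen with earlier results of these data known. The genes named are the 9 targets, *TP63*, *MDM4* and *CDKN2A*, the called genes of each list or, without a call, the 2 with the smallest p, and the 3 genes most correlated with each target. Some genes that this rule or the marker lists would name are not reported here. The results for called genes of the other lists under the alternatives were added after the data were seen.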

Additional observations from a re-analysis of the deposited data

Results flagged for a closer look

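*CDKN1A* had 272 CPM in collagen replicate 4, apart from the 193 to 202 CPM of the other 3 collagen libraries. The gap was 0.880 of the range of the group, above the critical ratio of 0.829 for 4 samples. It was the 1 group of values past this ratio among the 36 formed by the 9 genes and 4 groups, where chance gives about 1.8. Replicate 4 was also the highest *CDKN1A* library with DDR1i (268 CPM) and with RUNXi (261 CPM). Without collagen replicate 4, the log2 fold change of *CDKN1A* was 0.19 with DDR1i and 0.17 with RUNXi against collagen. Neither passed the threshold (adjusted p = 0.631 and 0.648 with edgeR), and replicate 4 of each inhibitor group stayed in these fits.

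Between the inhibitors, *DDB2* differed by a log2 fold change of 0.56 (adjusted p = 0.0364 with edgeR), with each of the 4 DDR1i libraries above each of the 4 RUNXi libraries. *KRT14*, a basal keratin of the epithelial marker list, differed by -0.97 (adjusted p = 6.76e-05 with edgeR), with each of the 4 DDR1i libraries below each of the 4 RUNXi libraries. Of all genes tested, 4.49% had libraries that did not overlap between the inhibitors. The part of keratin levels in the values of the p53 targets was not tested.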

How the results depend on the processing

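The count of 0 among the 9 genes held in all 4 comparisons under each alternative run, other than DDR1i against RUNXi, where 1 gene, *TP53I3*, was called without the filter on low counts (log2 fold change -0.53, adjusted p = 0.0372 with edgeR) and 1, again *TP53I3*, with the replicate block (-0.53, adjusted p = 0.0233). Deviations of libraries from their group mean correlated best between own numbers for most pairs (2 of 3, 3 of 3, 3 of 4 and 2 of 3). Pearson's r was low, from -0.0009 to 0.205 over the 4 comparisons, and for replicate 4 it was 0.156 to 0.205. The labels do not say what libraries of the same number share, and the main tests did not take the numbers as pairs. An effect of replicate number was therefore removed only in the fit with the replicate block. In fits that left out 1 library the count stayed at 0 in each comparison.

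Over all genes, 334 were called with DDR1i, 549 with RUNXi, 77 between the inhibitors and 0 in collagen against Control. DESeq2 called 857, 1168, 134 and 415, and without the filter edgeR called 755, 1046, 163 and 284. With collagen replicate 3 included, 9 and 60 were called for the inhibitors against collagen, and with the length trend removed 152 and 201. The replicate block gave 537 with DDR1i and 154 between the inhibitors, and all 4 groups in the fit gave 313 for collagen. Without 1 library the counts ranged from 60 to 662, 123 to 715 and 53 to 109. Of the 43 other p53 targets, 1, 2, 1 and 0 were called, and under the alternatives 0 to 4, 1 to 6, 0 to 3 and 0 to 1.

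Of 252 log2 fold changes of the 9 genes under settings other than leaving out a library, 237 kept their direction and side of the threshold, 13 changed sign and 2 were newly called. After the change of sign the values lay between -0.16 and 0.23. With the length trend removed these were *CDKN1A* with RUNXi (0.12) and between the inhibitors (-0.0255), *ZMAT3* with RUNXi (-0.16), and in collagen against Control *BBC3* (-0.0736), *TP53I3* (-0.15), *ZMAT3* (0.23) and *FAS* (-0.0886). With collagen replicate 3 included they were *CDKN1A* with RUNXi (0.011) and *FAS* in collagen against Control (-0.0351). With the replicate block they were *CDKN1A* with RUNXi (0.0394), *BBC3* between the inhibitors (0.0035), and *SESN1* (-0.0465) and *FAS* (-0.0315) in collagen against Control. Without 1 library, 32 of 360 values changed sign and none was called. The ranges were -0.0893 to 0.19 (*CDKN1A*), -0.23 to 0.0507 (*TP53I3*) and -0.26 to 0.16 (*BTG2*) with DDR1i, and -0.12 to 0.17 (*CDKN1A*) with RUNXi. Between the inhibitors they were -0.0667 to 0.12 (*CDKN1A*), -0.16 to 0.43 (*GDF15*), -0.14 to 0.18 (*BBC3*) and -0.13 to 0.23 (*FAS*). In collagen against Control they were -0.43 to 0.25 (*GDF15*), -0.10 to 0.41 (*BBC3*), -0.0604 to 0.22 (*TP53I3*), -0.0423 to 0.39 (*SESN1*), -0.0747 to 0.0636 (*ZMAT3*) and -0.0409 to 0.22 (*FAS*). The cause of these changes was not tested. *BBC3* and *GDF15*, with the lowest CPM or the widest spread, had the widest intervals.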

Other observations

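The list of 10 proliferation genes covers a process that p21 and the p53 pathway hold back when active. Of the 10 genes, 1 was called with each inhibitor against collagen, where 2.47% (DDR1i) and 4.05% (RUNXi) of all genes were called. *MKI67*, the gene of the Ki-67 antigen, rose by 0.76 on the log2 scale with DDR1i (adjusted p = 0.00621 with edgeR) and by 0.50 with RUNXi (adjusted p = 0.0437). It had 283, 335 and 216 CPM in collagen replicates 1, 2 and 4, 396 to 524 CPM with DDR1i and 352 to 458 CPM with RUNXi. The Control libraries, without collagen or inhibitor, had 397 to 567 CPM of *MKI67*, a range that overlaps those of both inhibitor groups. Collagen replicate 3 had 509 CPM, and including it gave *MKI67* adjusted p-values of 0.493 and 0.649. Correction for transcript length also ended both calls of *MKI67* (adjusted p = 0.0727 and 0.449). With RUNXi the call of *MKI67* held in 4 of 11 leave-one-out fits. Median log2 fold changes of the 10 genes were -0.07 with DDR1i and -0.18 with RUNXi, and 6 and 7 of the 10, respectively, were below 0. In collagen against Control, *MKI67* (-0.78) and *TOP2A* (-0.38) had the smallest p and were not called, and between the inhibitors *MKI67* (0.26) and *BUB1* (0.17) were not called either.

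Of the 8 epithelial markers, *KRT14* fell by 0.90 on the log2 scale and *ITGA6* rose by 0.44 with DDR1i against collagen, and *ITGA6* rose by 0.59 with RUNXi (adjusted p = 0.00123, 0.0471 and 0.0106, respectively, with edgeR). Including collagen replicate 3 ended both calls of *ITGA6* (adjusted p = 0.457 and 0.0775), and with DDR1i its call held in 2 of 11 leave-one-out fits and was lost after correction for transcript length (0.314) and with all 4 groups in the fit (0.137). In collagen against Control *ITGA6* (-0.31) and *CDH1* (-0.28) had the smallest p and were not called. Of the 5 fibroblast and 4 leukocyte markers, 3 and 1 passed the filter on low counts in the fit with inhibitors and 2 and 1 in that of collagen against Control, and none was called. The fibroblast markers with the smallest p were *PDGFRB*, *DCN* (-0.96 with DDR1i, -0.91 with RUNXi and 0.07 with collagen) and *COL1A1* (-0.38 between the inhibitors and -0.22 with collagen). *PDGFRB* had 0, 0 and 0.162 CPM in collagen replicates 1, 2 and 4, 0.253 to 0.761 CPM with DDR1i and 0 to 0.601 CPM with RUNXi, and no fold is given at these levels. The leukocyte marker *CD68* had 0.35 with DDR1i, -0.08 with RUNXi, 0.43 between them and -0.23 with collagen.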
